A study of Danio rerio with 12 samples.

Results

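The transcripts described here are those of 7 blood stem cell regulators: the Runx factors runx1 and runx3, their partner cbfb, the factor myb, and the Gfi1 repressors gfi1aa, gfi1ab and gfi1b. They were picked by gene symbol from a table of 25011 zebrafish genes, and all 7 were found, each on a single row, and passed the filter on low counts. RNA-seq was done on haemogenic endothelial cells, about 5000 per sample, sorted from the trunk of embryos at 36 hours post-fertilisation. The sort took cells positive for mCherry under kdrl, an endothelial gene, and for GFP under a runx1 enhancer, in the transgenic background Tg(kdrl:mCherry/runx1:en-GFP) that all samples share. The 3 morphant samples came from embryos injected with a morpholino against the DNA methyltransferase gene dnmt3ba (labelled dnmt3ba knockdown), and the 3 control samples are labelled WT. Any injection of the controls was not given in the sources used here. Differences between the groups can therefore include an effect of injection. The design text calls the replicates biological, and each is a pool of cells from embryos whose number is not stated. A morpholino acts in the whole embryo, so the cells studied are not the only ones exposed to it.

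Blood stem cells arise in the embryonic aorta, where haemogenic endothelial cells round up and leave the vessel wall. Runx1 is the DNA-binding subunit of the core binding factor and is required for this transition. Its partner Cbfb binds no DNA itself and strengthens Runx binding. Myb acts in the stem and progenitor cells that emerge and is required for definitive blood in zebrafish. Gfi1 factors are zinc finger repressors that recruit the demethylase Lsd1 (kdm1a) and CoREST. In the mouse Gfi1 and Gfi1b are Runx1 targets that silence endothelial genes in the haemogenic endothelium.

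Library depth was even, with 24397076 to 25132656 estimated counts per library. Endothelial transcripts were present in every library: 15 endothelial markers summed to 3720.4, 4474 and 4320.3 TPM (transcripts per 1000000) in morphants 1 to 3 and to 2564, 2011 and 2917 TPM in controls 1 to 3. Transcripts of other cells were present as well, and 16 skeletal muscle markers summed to 10401 to 24099 TPM in morphants and 15361 to 74833 TPM in controls. On the first principal component, with 37.8% of the variance, morphants 1 to 3 lay at -72.7, -12.7 and -59.2. Controls 1 to 3 lay at 14.3, 118 and 12. The groups did not overlap on this component, and control 2 was the outlying library. On the second, with 31.3%, morphant 2 (-22.1) lay apart from morphants 1 and 3 (44.9 and 50.9), towards controls 1 and 3 (-71.5 and -68.5). Control 2 (66.2) lay on the side of morphants 1 and 3, so the second component did not separate the groups. The targeted gene dnmt3ba read 405 to 673 CPM (counts per 1000000) in morphants and 442 to 789 CPM in controls. Morpholinos can act without reducing the transcript they bind, so these values are no check of the labels. kdrl, the gene of the sorted mCherry reporter, read 516, 88.2 and 519 CPM in morphants 1 to 3. In controls 1 to 3 it read 97.4, 184 and 74.5 CPM, so morphant 2 lay within the range of the controls. In bulk samples, fewer cells of a type and less RNA per cell cannot be told apart.

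Across the 7 genes, 6 had lower mean levels in morphants and gfi1ab alone had a higher one. At a Benjamini-Hochberg adjusted p under 0.05, edgeR's quasi-likelihood test called 0 of the 7, while it called 12 of 18846 genes tested, or 0.0637%. At an unadjusted p under 0.05, 5 of the 7 were lower in morphants (runx1, cbfb, myb, gfi1aa and gfi1b), against 9.46% of all genes tested. At the same threshold 1 of the 7 was higher (gfi1ab), against 7.58% of all genes. In CPM, the 3 morphant values lay below the 3 control values for those same 5 genes, which held for 11.9% of all genes, and above them for gfi1ab, which held for 12.4%. DESeq2 called 4 of the 7 at an adjusted p under 0.05: runx1, myb and gfi1aa lower, against 3.71% of 17009 genes with an adjusted p, and gfi1ab higher, against 3.5%. limma-voom called 0 of the 7. Without control 2 and morphant 2, edgeR called 2 of the 7: gfi1aa lower, against 4.54% of 19121 genes, and gfi1ab higher, against 2.56%. Both libraries lay apart from others of their group on a principal component, so these calls are not independent support. Without these 2 libraries edgeR called 1359 of the 19121 genes. With control 2 alone left out edgeR called 0 of the 7. The median log2 fold change of the 7 was -0.67, beside -0.04 over all genes tested. The number of genes that edgeR called over the whole table was 0 without morphant 1, without morphant 3 or without control 3, 1 without control 1, 30 without morphant 2 and 77 without control 2.

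**Figure D1:**
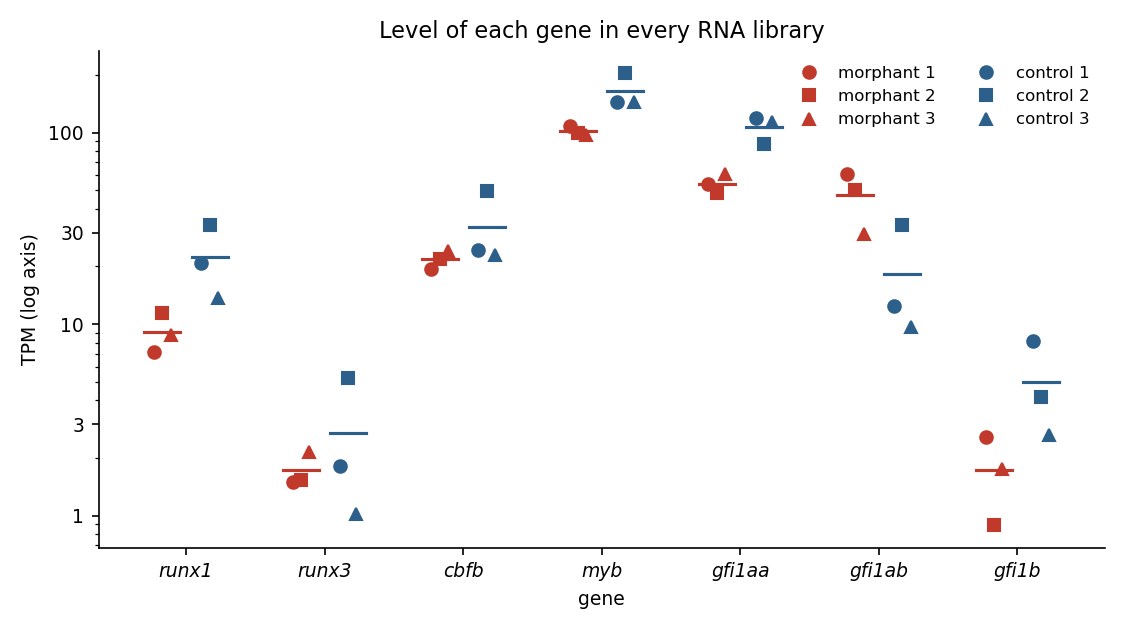
The level of each gene in TPM, on a log axis, is plotted for every library, with morphants in red left of controls in blue and a line at each group's mean. The morphant points lie below all control points for runx1, myb, gfi1aa and gfi1b, and the groups overlap for runx3, cbfb and gfi1ab on this scale.

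Levels per transcript length, in TPM, put myb highest in both groups and gfi1b and runx3 lowest. In morphants myb stood at 102 ± 5.89 TPM, followed by gfi1aa at 54.2 ± 6.16 and gfi1ab at 47.0 ± 15.8 TPM (SD, n = 3), with the gfi1aa and gfi1ab ranges overlapping. After these in morphants came cbfb at 21.8 ± 2.34 and runx1 at 9.10 ± 2.15 TPM, each clear of its neighbours, and then runx3 and gfi1b at 1.73 TPM each (SD 0.364 and 0.84). In controls the order was myb at 164 ± 34.2 TPM and gfi1aa at 107 ± 17.5 TPM, clear of each other and of the rest. Then in controls came cbfb at 32.2 ± 14.8, runx1 at 22.5 ± 9.74 and gfi1ab at 18.3 ± 12.7 TPM, whose ranges overlapped from neighbour to neighbour. At the low end in controls, gfi1b at 4.97 ± 2.85 and runx3 at 2.70 ± 2.25 TPM overlapped too. Thus gfi1ab stood above cbfb and runx1 in morphants and below both in controls. Among the genes tested, the percentile of mean TPM was 91.4 in morphants and 95.1 in controls for myb, and 56.4 in morphants and 72.7 in controls for runx1.

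runx1 (gene ID 58126), the factor whose enhancer drives the sorted GFP reporter, was lower in every morphant than in any control. Because of that sort, runx1 was compared only among cells selected for this reporter. Its level was 11.0, 16.3 and 13.5 CPM in morphants 1 to 3, against 35.1, 39.4 and 22.4 CPM in controls 1 to 3, from 280 to 413 counts in morphants and 524 to 1086 in controls. The nearest libraries were morphant 2 and control 3. A log2 fold change of -1.25 (SE 0.28, 95% interval -1.90 to -0.60), or 2.37-fold lower in morphants, had an edgeR adjusted p of 0.14. By p it ranked 321 of the 18846 genes. DESeq2 gave -1.24 (SE 0.32, adjusted p = 0.0049). Over the 6 fits that each left out a library the log2 fold change ran from -1.45 to -1.08.

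The other Runx gene in the group, runx3 (gene ID 58127), a paralogue that in zebrafish is also transcribed in sensory neurons, was scarce and did not separate the groups. It read 6.59, 6.48 and 9.85 CPM in morphants 1 to 3, against 9.01, 18.3 and 4.92 CPM in controls 1 to 3. The controls span the morphants on both sides, and control 2 is the highest library. Its log2 fold change was -0.49 (SE 0.48, 95% interval -1.61 to 0.62; edgeR adjusted p = 0.63), and without control 2 it was 0.14. Of the 12 neuronal markers tested 10 had a negative log2 fold change and 2 a positive one (median -0.41, and -0.74 without control 2 and morphant 2), with 0 called and 0 at an unadjusted p under 0.05 (edgeR; 0 by DESeq2 and 0 by limma-voom).

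cbfb (gene ID 30744), the shared partner of the Runx proteins, read 52.7, 59.5 and 70.3 CPM in morphants 1 to 3. In controls 1 to 3 it read 81.2, 114 and 73.8 CPM. The groups did not overlap in CPM, by the small gap between morphant 3 and control 3. In TPM they overlapped, with 24.2 TPM in morphant 3 against 22.9 TPM in control 3. edgeR gave a log2 fold change of -0.56 (SE 0.22, 95% interval -1.07 to -0.05; adjusted p = 0.26), and it was -0.35 without control 2. DESeq2 gave an adjusted p of 0.2.

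Relative to its partner, runx1 was scarcer in each morphant. runx1 TPM was 36.6, 52.3 and 36.2% of cbfb TPM in morphants 1 to 3, and 85.1, 66.8 and 59.6% in controls 1 to 3. This percentage averaged 41.7 ± 9.18 over morphants, against 70.5 ± 13.2 over controls (SD, n = 3), and the groups did not overlap. This ratio was chosen with the values known, so no test was made. Against its paralogue, runx1 TPM was 4.77, 7.41 and 4.07 times runx3 TPM in morphants. In controls it was 11.5, 6.26 and 13.4 times, and morphant 2 lay above control 2. As a percentage of myb TPM, runx1 TPM was 6.61, 11.4 and 9.04 in morphants 1 to 3. In controls 1 to 3 this percentage was 14.4, 16.2 and 9.43, and morphant 2 lay above control 3.

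An offset for gene length shifted the log2 fold change of runx3 most, followed by cbfb, with gfi1ab close behind cbfb. Whether length was a cause of any shift was not tested. Fold changes over 18846 genes were related to gene length, as the authors' counts and FPKM imply it (Spearman's rho = -0.28 across genes, which are not independent replicates), with longer genes lower in morphants. Implied lengths were 5813 bases for runx3 and 3821 for cbfb. Genes within 1.2-fold of these lengths had median log2 fold changes of -0.54 around runx3 and -0.26 around cbfb. With an offset for length the log2 fold change of runx3 was -0.04 (SE 0.46) and that of cbfb -0.29 (SE 0.22, edgeR adjusted p = 0.57). For runx1, with an implied length of 1979 bases, genes of like length had a median of 0.02, and the offset gave -1.28 (SE 0.30, adjusted p = 0.13). For myb, with 3000 bases, the median of like genes was -0.13 and the offset gave -0.54 (SE 0.16, adjusted p = 0.17). The Gfi1 genes were short, with implied lengths of 1265 bases for gfi1aa, 1001 for gfi1ab and 1088 for gfi1b. With the offset their log2 fold changes were -1.09 (SE 0.23) for gfi1aa, 1.24 (SE 0.45) for gfi1ab and -1.75 (SE 0.62) for gfi1b, with edgeR adjusted p of 0.1, 0.25 and 0.24.

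myb (gene ID 30519), the most abundant of the 7, had the smallest SD relative to its mean in each group by CPM. It read 245, 217 and 228 CPM in morphants 1 to 3, against 370.2, 366 and 361 CPM in controls 1 to 3. Every morphant was below every control, and the 3 controls were close to each other, control 2 included. The means were 229.9 ± 14.0 CPM in morphants, against 366 ± 4.45 CPM in controls (SD, n = 3). The edgeR log2 fold change was -0.67 (SE 0.15, 95% interval -1.03 to -0.31), or 1.59-fold lower in morphants, with an adjusted p of 0.14. DESeq2 gave -0.66 (SE 0.16, adjusted p = 0.0022). Over the fits that each left out a library the log2 fold change ran from -0.71 to -0.63. In TPM the values were 108, 99.9 and 96.8 in morphants and 144, 204 and 145 in controls, where control 2 stood apart.

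gfi1aa (gene ID 553814), which in zebrafish is known with gfi1b for a part in primitive red cell differentiation, was lower in every morphant than in any control. It read 51.2, 44.1 and 60.6 CPM in morphants 1 to 3, against 129, 65.4 and 119 CPM in controls 1 to 3. Control 2 lay nearest to the morphants, just above morphant 3. This was a log2 fold change of -1.0 (SE 0.28, 95% interval -1.65 to -0.36; edgeR adjusted p = 0.18). Without control 2 it was -1.25, and without control 1 it was -0.82. DESeq2 gave -0.99 (SE 0.32, adjusted p = 0.031).

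gfi1ab (gene ID 798697), the co-orthologue of gfi1aa, was higher in every morphant than in any control by CPM. It read 46.0, 36.4 and 23.5 CPM in morphants 1 to 3, against 10.6, 19.6 and 7.99 CPM in controls 1 to 3. Control 2 was again the control nearest to the morphants. In TPM morphant 3 and control 2 overlapped, at 29.7 and 32.9 TPM. With edgeR the log2 fold change was 1.47 (SE 0.39, 95% interval 0.55 to 2.39), or 2.77-fold higher in morphants, at an adjusted p of 0.17. Its percentile among the log2 fold changes of all genes tested was 97.5. DESeq2 gave 1.48 (SE 0.43, adjusted p = 0.014). Over the fits that each left out a library the log2 fold change ran from 1.23 to 1.93, the highest being without control 2.

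The paralogues gave a Gfi1 transcript pool of different make-up in the 2 groups. In TPM gfi1aa made up 46.9, 49.0 and 67.1% of the sum of gfi1aa and gfi1ab in morphants 1 to 3, against 90.6, 72.5 and 92.2% in controls 1 to 3. The mean share was 54.3 ± 11.1% in morphants and 85.1 ± 10.9% in controls (SD, n = 3), with no overlap between morphant 3 and control 2. The mean log2 ratio of gfi1aa to gfi1ab was 0.264 ± 0.667 in morphants and 2.74 ± 1.17 in controls, a difference of -2.48. From CPM it was also -2.48, which adds nothing. Within a library, this ratio in TPM and in CPM differs only by a constant for gene length. The summed level was 114, 98.7 and 90.3 TPM in morphants and 132, 119.6 and 123 TPM in controls, a log2 ratio of means of -0.31. In CPM the sums overlapped, at 97.2, 80.5 and 84.1 CPM in morphants, against 139, 85.0 and 127 CPM in controls. No p is given for the share or the sum, since the pair was chosen with its values known. How reads shared by the paralogues were counted was not given in the sources used here.

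**Figure D2:**
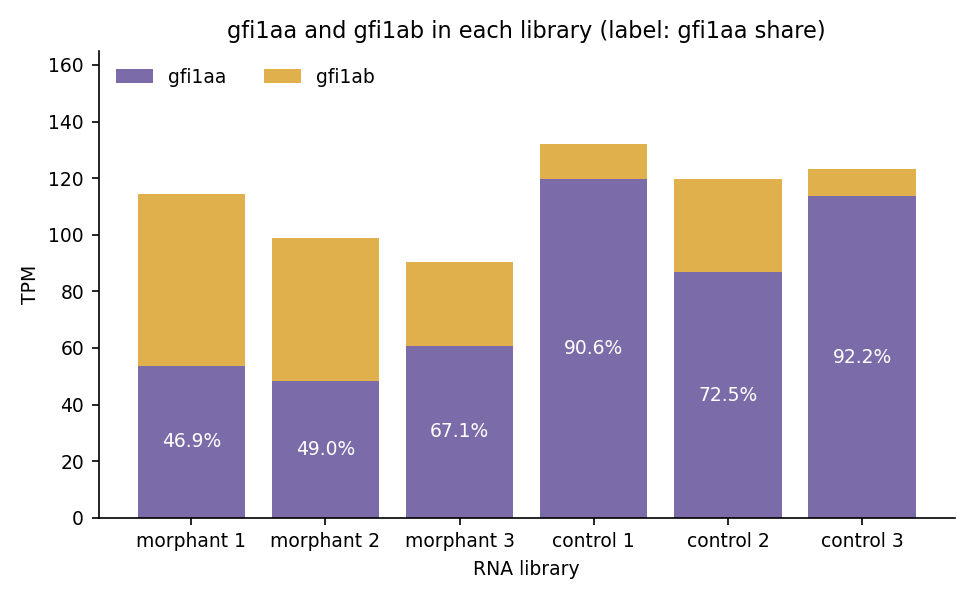
Stacked bars give gfi1aa (purple, lower) and gfi1ab (yellow, upper) in TPM for each RNA library, morphants left of controls, and the number in each bar is the gfi1aa share of their sum. The share lies between 46.9 and 67.1% in morphants and between 72.5 and 92.2% in controls, while the bar heights run from 90.3 to 114 TPM in morphants and from 119.6 to 132 TPM in controls.

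gfi1b (gene ID 100151531), the remaining Gfi1 gene and a regulator of red cell and platelet formation, was near the low end of detection. It had 53, 18 and 35 counts in morphants 1 to 3, against 190, 78 and 51 counts in controls 1 to 3. As CPM these were 2.08, 0.711 and 1.44 in morphants and 8.23, 2.83 and 2.18 in controls. Morphant 1 and control 3 were almost equal, and control 1 stood well above the rest. Its log2 fold change was -1.64 (SE 0.67, 95% interval -3.19 to -0.09; edgeR adjusted p = 0.27). Without control 1 it was -0.82, and DESeq2 gave an adjusted p of 0.14.

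Red cell transcripts were lower between the same libraries. All 13 erythroid markers had negative log2 fold changes (median -1.62), as did 9872 of the 18846 genes tested. Of the 13, 10 were lower at an unadjusted p under 0.05 by edgeR, against 9.46% of all genes tested. DESeq2 called 5 of them lower, against 3.71% of genes, and edgeR and limma-voom called 0. The sum of the 13 was 6792, 5087 and 1832 TPM in morphants 1 to 3 and 19056, 7797 and 7237 TPM in controls 1 to 3. Control 1 was the highest library both for this sum and for gfi1b. gata1a, the red cell master regulator, read 10.4, 5.69 and 7.42 CPM in morphants, against 44.2, 14.9 and 8.16 CPM in controls. The part of red cell content in the values of gfi1b, gfi1aa, myb and runx1 was not tested. Gfi1 is also known in mouse inner ear hair cells, and of 8 hair cell markers 7 were found by name and 3 passed the filter. Of these 3, 0 were called by edgeR, DESeq2 or limma-voom and 0 had an unadjusted p under 0.05. Their directions differed. myo7aa read 24.0 CPM in morphants, against 39.3 CPM in controls, and cdh23 read 1.41 CPM in morphants, against 2.42 CPM in controls. s100s read 3.76 CPM in morphants, against 2.31 CPM in controls. The hair cell regulator atoh1a, which did not pass, averaged 0.0269 CPM in morphants, against 0.0427 CPM in controls.

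Blood cells other than stem cells also transcribe runx1 and myb, and sums of myeloid markers overlapped between the groups. The 7 neutrophil markers summed to 14111, 8566 and 28706 TPM in morphants 1 to 3 and to 13007, 26039 and 7433 TPM in controls 1 to 3. The 7 macrophage markers summed to 2492, 942 and 2359 TPM in morphants and to 1059, 2121 and 687 TPM in controls. Among the controls runx1 ran in the order of the neutrophil sum, from 39.4 CPM in control 2 through 35.1 CPM in control 1 to 22.4 CPM in control 3. Among the morphants it did not: morphant 2, with the lowest neutrophil sum, had the highest runx1 at 16.3 CPM, and morphant 3, with the highest sum, read 13.5 CPM. An order over 3 libraries is a description only, and a link of runx1 with the neutrophil sum was not tested. The median log2 fold change of the muscle markers was -1.82, and -2.68 without control 2 and morphant 2, with all 16 negative in both. Of the 16, 14 were lower at an unadjusted p under 0.05 by edgeR, against 9.46% of all genes tested. DESeq2 called 8 of them lower, against 3.71% of genes. The 9 epidermal markers summed to 919, 553 and 967 TPM in morphants 1 to 3 and to 2384, 3798 and 1177 TPM in controls 1 to 3, with 7 negative and 2 positive log2 fold changes. Their median was -1.38, and -0.60 without control 2 and morphant 2. Of the 9, 5 were lower at that unadjusted threshold and 2 were called lower by DESeq2. All 15 endothelial markers were positive, with a median of 0.67. Of the 15, 8 were higher at that threshold, against 7.58% of all genes, and DESeq2 called 3 higher, against 3.5%. Without control 2 and morphant 2 their median was 0.37, with flt4 (-0.10) and sox18 (-0.28) negative. In these 3 lists edgeR and limma-voom called 0 genes. The part of these cell types in the values of the 7 genes was not tested.

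**Figure D3:**
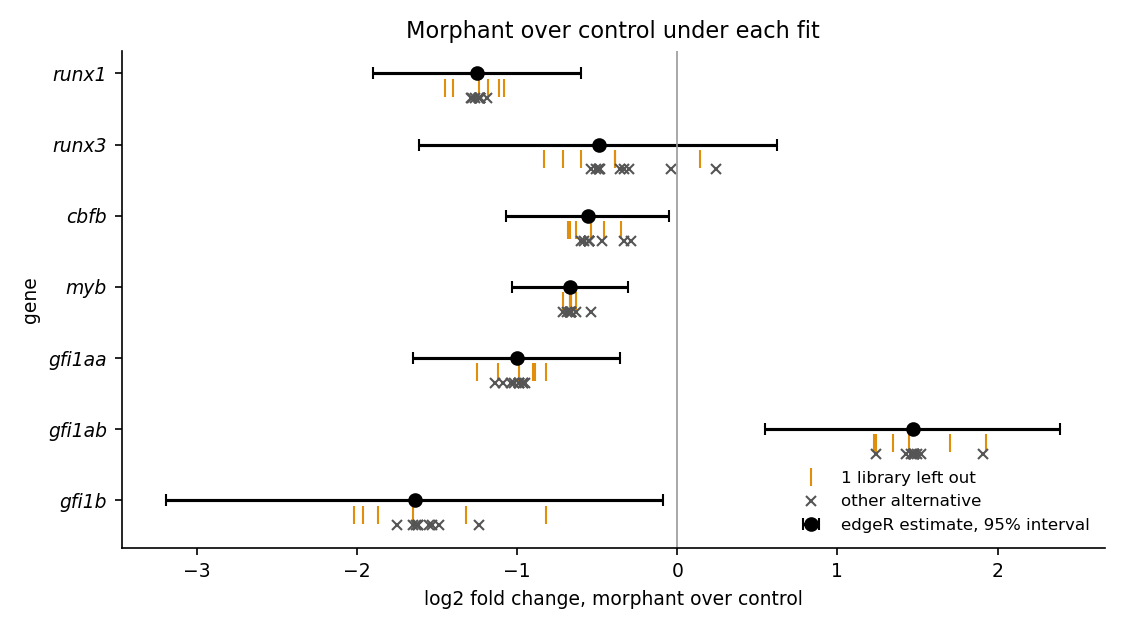
The log2 fold change of each gene, morphant over control, is shown by a black point with its 95% interval from edgeR, orange ticks for the fits that leave out a library and grey crosses for the other alternatives. Every tick and cross lies left of 0 for runx1, cbfb, myb, gfi1aa and gfi1b and right of 0 for gfi1ab, while those of runx3 lie on both sides.

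Relatives of these genes outside the group, further Runx and Myb genes and the ETO corepressors, ranged in TPM from nearly absent to near the level of cbfb. runx2b read 0.498 CPM in morphants, against 0.144 CPM in controls, and runx2a did not pass the filter. Of 7 tested Runx and Myb relatives 0 were called by edgeR, DESeq2 or limma-voom. At an unadjusted p under 0.05, 0 were higher, against 7.58% of all genes tested, and 2 lower, against 9.46%. The median was -0.40, beside -0.04 for all genes tested, and it was -0.12 with the length offset and -0.24 without control 2 and morphant 2. The 2 lower genes were cbfa2t3, a corepressor of the ETO family, at 44.6 ± 4.96 CPM in morphants, against 79.7 ± 23.8 CPM in controls (edgeR adjusted p = 0.19), and runx1t1, the ETO gene itself, at 47.4 ± 2.97 CPM in morphants, against 66.8 ± 16.2 CPM in controls (adjusted p = 0.29). Control 2 was the highest library for both. mybl2b, a cell cycle Myb, read 34.9 ± 3.79 CPM in morphants, against 54.1 ± 23.1 CPM in controls, and mybl1 read 2.1 ± 0.337 CPM in morphants, against 1.19 ± 0.709 CPM in controls, with overlap in each.

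Corepressors and coactivators that work with Runx, Myb and Gfi1 proteins mostly had lower levels in morphants. Of 19 tested, 16 had a negative log2 fold change (median -0.29), as did 9872 of the 18846 genes tested. At an unadjusted p under 0.05, 7 were lower, against 9.46% of all genes tested, and 0 higher, against 7.58%. edgeR and limma-voom called 0 of the 19, and DESeq2 called 2 lower, against 3.71% of genes. With the length offset the median of this list was 0.07. The Sin3 scaffold genes sin3aa and sin3ab averaged 20.0 ± 4.06 and 30.8 ± 6.17 CPM across morphants, against 43.2 ± 12.9 and 59.4 ± 22.0 CPM across controls. The CoREST gene rcor2 read 16.7 ± 1.82 CPM in morphants, against 29.1 ± 7.59 CPM in controls. The edgeR adjusted p of these 3 lay between 0.16 and 0.21. kdm1a, the demethylase that Gfi1 proteins recruit, was not among them, at 224 ± 17.7 CPM in morphants, against 251 ± 11.6 CPM in controls (log2 fold change -0.16, SE 0.16). The most abundant of the list, the deacetylase hdac1 and the methyltransferase prmt1, averaged 646 ± 52.2 and 740.2 ± 79.1 CPM across morphants, against 578 ± 65.2 and 839 ± 129.9 CPM across controls, within the spread of the replicates.

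Factors that act upstream of runx1 in blood-forming endothelium moved in both directions. Of 18 tested, 11 had a positive log2 fold change, as did 8974 of the 18846 genes tested. Their median was 0.27, which was 0.49 with the length offset and 0.10 without control 2 and morphant 2. Of the 18, 4 were higher at an unadjusted p under 0.05, against 7.58% of all genes tested, and 1 lower, against 9.46%. edgeR and limma-voom called 0 of the 18, and DESeq2 called 3 higher, against 3.5% of genes. fli1b, an endothelial ETS factor listed in the table as fli1rs, read 459.9 ± 25.7 CPM in morphants, against 267 ± 14.0 CPM in controls (log2 fold change 0.78, edgeR adjusted p = 0.12). The vascular regulator etsrp and the blood and vessel factor hhex averaged 363 ± 28.9 and 29.1 ± 1.33 CPM across morphants, against 168 ± 62.7 and 17.1 ± 6.0 CPM across controls. lmo2, an adaptor of the Scl complex, read 379 ± 9.66 CPM in morphants, against 243 ± 30.2 CPM in controls. tal1, which encodes Scl itself, was the lower gene, at 78.1, 72.4 and 70.5 CPM in morphants 1 to 3, against 114, 85.3 and 108 CPM in controls 1 to 3 (log2 fold change -0.48, SE 0.17, edgeR adjusted p = 0.24). Its groups did not overlap. Of the 18, the groups did not overlap in CPM for 8 higher genes, against 12.4% of all genes tested, and for 1 lower gene, against 11.9%. fli1a, listed as fli1, read 834 ± 89.0 CPM in morphants, against 685 ± 75.6 CPM in controls. gata2b, which lies directly above runx1 in zebrafish, read 57.8 CPM in morphants, against 67.6 CPM in controls (log2 fold change -0.23, SE 0.25). Many of these factors are also transcribed in endothelium at large, whose 15 markers all had positive log2 fold changes with every library kept. The part of endothelial content in the values of these factors was not tested.

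A list of genes placed downstream of Runx1, or transcribed in haemogenic endothelium and emerging blood cells, was mixed in direction. A place on this list does not show that Runx1 acts on the gene. Of 20 tested, with a median of -0.21, 2 were higher at an unadjusted p under 0.05, against 7.58% of all genes tested. At that threshold 1 was lower, against 9.46%. edgeR and limma-voom called 0 of the 20, and DESeq2 called 2 higher, against 3.5% of genes. The lower gene was ikzf1, a lymphoid and progenitor factor, at 151, 123 and 120.3 CPM in morphants 1 to 3, against 184, 221 and 166 CPM in controls 1 to 3 (log2 fold change -0.54, SE 0.19, edgeR adjusted p = 0.23). tgfbr2b, a TGF-beta receptor, read 391 ± 18.2 CPM in morphants, against 202 ± 66.0 CPM in controls, and lmo4a read 166 ± 6.84 CPM in morphants, against 98.4 ± 28.5 CPM in controls. The myeloid factor spi1a read 171 ± 84.5 CPM in morphants, against 97.8 ± 55.7 CPM in controls, within the spread of the replicates. The leukocyte genes lcp1 and coro1a, the most abundant, averaged 1479.8 and 956 CPM across morphants, against 1448 and 1122 CPM across controls. itga2b, which encodes the thrombocyte and stem cell antigen CD41, was nearly absent, at 0.321 CPM in morphants, against 0.0142 CPM in controls, and did not pass the filter. The median of this list was -0.10 with the length offset and 0.39 without control 2 and morphant 2.

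**Figure D4:**
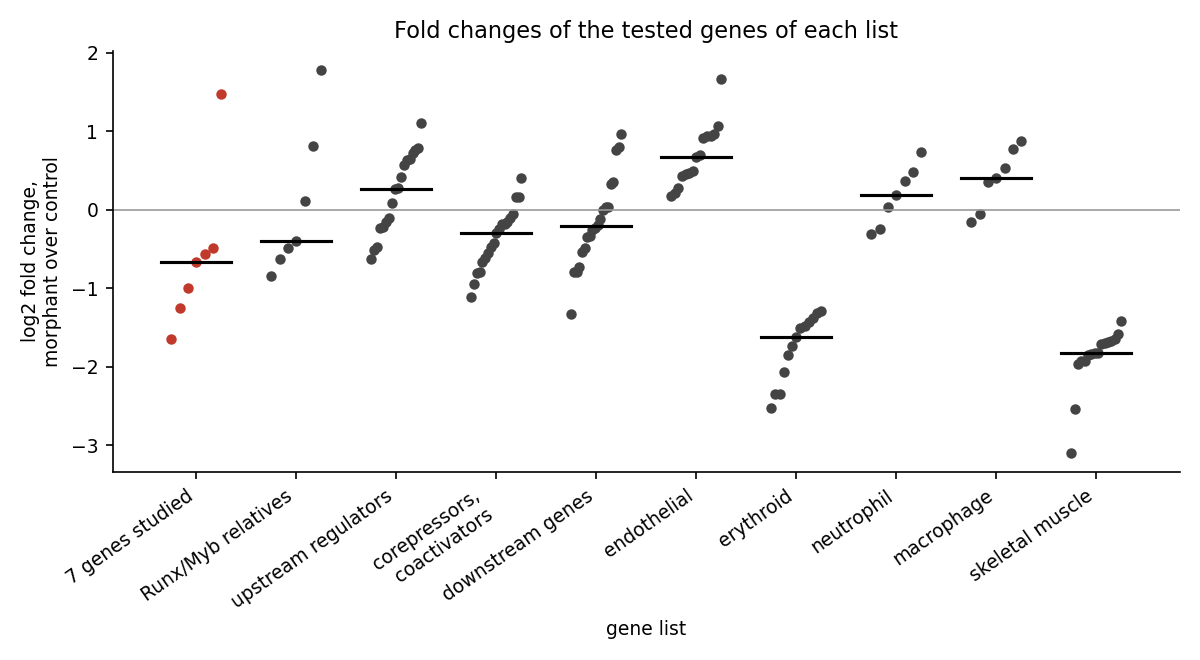
Each point is the log2 fold change, morphant over control, of a tested gene, grouped by list along the horizontal axis, with a line at the list's median. The 7 genes (red) have a median of -0.67 with gfi1ab above 0, erythroid and muscle markers lie wholly below 0, and endothelial markers lie wholly above 0.

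The genes whose profile over the 6 libraries was most like that of a member were found by Pearson's r of log2 CPM among 10713 candidates, as a description that includes the difference between the groups. For runx1 these were trpm7, an ion channel gene, and zfpm1, the GATA cofactor Fog1, both with r = 0.995, and actn4 and gbe1b, both with r = 0.993. zfpm1 read 22.2 ± 4.50 CPM in morphants, against 45.7 ± 12.3 CPM in controls (SD, n = 3). For myb they were pdcd4a (r = 0.994), ints7 (0.988), wnk4a (0.986) and cdca7b (0.985). pdcd4a read 160 ± 5.01 CPM in morphants, against 260.4 ± 7.19 CPM in controls, with replicates about as close as those of myb. For gfi1aa they were hnrnpm (0.989) and the ribosomal protein genes rpl22l1 (0.986) and rpl3 (0.984). rpl3 read 2427 ± 246 CPM in morphants, against 4197 ± 775 CPM in controls. For gfi1ab they were inpp4aa (0.985), tbc1d19 (0.984), sap30bp (0.984) and pdpk1b (0.983), whose log2 fold changes of 0.44 to 0.57 were smaller than that of gfi1ab. The edgeR adjusted p of these 15 genes was 0.083 or more. These libraries share their groups and their cell make-up, so the values of r describe the libraries and no more.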

How the data were processed

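RNA was sequenced from sorted cells of 3 dnmt3ba morphant and 3 control samples, grouped by the genotype label. The submitters' processing notes name the tools HTSeq 0.12.4, HISAT2 2.2.1 and DESeq2 1.30.1, whose roles they do not state, and the build GRCz11. Per gene and library, the deposited table gives TPM, FPKM and a read count, per the file headers. These are used here as estimated counts, as the authors deposited them, since 13.5 to 15.1% per library are not whole. Its annotation and strand setting were not given in the sources used here. Total estimated counts ran from 24397076 to 25132656.

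Estimated counts were rounded. The estimated counts of the 7 genes were already whole in each library. Genes were kept by edgeR's filterByExpr (18846 of 25011) and scaled by TMM, whose factors ran from 0.932 to 1.11. Morphants were tested against controls by the two-sided quasi-likelihood F-test of edgeR 4.0.16 in R 4.3.3, with Benjamini-Hochberg adjustment over all tested genes and a threshold of 0.05. The SE was taken from the F statistic. The test was also tried on simulated data, with each gene drawn independently. That trial had no outlying library and no length trend, so nothing about these data is drawn from it. CPM values are TMM-scaled and TPM values are the authors'. The deposited FPKM and counts gave each gene's implied length. The alternatives were upper-quartile and RLE scaling, DESeq2 1.42.0, limma 3.58.1 (voom, and log2(TPM + 0.5)), no filter, a stricter filter (5 CPM in 3 libraries), an adjusted p under 0.10, a replicate block, leaving out each library, leaving out control 2 and morphant 2, and an offset from a loess fit (span 0.5) on gene length.

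The genes, lists and ratios were chosen with earlier results of these data known. Each other list is described by counts and median, naming the 4 members of smallest p and the 2 most abundant where none was called. Marker lists are given by counts, sums or medians, with the 3 tested hair cell markers named. gata1a, atoh1a, flt4, sox18, kdrl, gata2b, tal1, kdm1a, itga2b and the runx2 genes fall outside these choices and were named after their values were seen. 2 genes that these choices would name are not reported here. Names were matched by symbol or by synonym in a RefSeq table of GRCz12tu, used for names alone. The deposited methylation regions carry no gene names and were not used here.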

Additional observations from a re-analysis of the deposited data

How the results depend on the processing

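The direction of runx1, cbfb, myb, gfi1aa, gfi1b and gfi1ab was the same in each alternative that was run, and gfi1b was not tested under the stricter filter. runx3 reversed to 0.14 without control 2 and to 0.24 without control 2 and morphant 2, and ran from -0.83 to 0.14 over the single libraries left out. DESeq2 called 4 of the 7 genes: runx1 (-1.24), myb (-0.66), gfi1aa (-0.99) and gfi1ab (1.48). Without control 2 and morphant 2, 2 of the 7 were called, gfi1aa (-1.14, lower; 4.54% of genes) and gfi1ab (1.91, higher; 2.56%). None of the 7 was called under any other alternative. The difference in the log2 ratio of gfi1aa to gfi1ab ran from -3.15 to -2.07 over its alternatives, and the log2 ratio of their sum from -0.42 to -0.23. Calls over all genes were 1226 with DESeq2, 76 with limma on log2 TPM, 37 without a filter, 31 with the length offset, 84 at an adjusted p under 0.10, 1359 without control 2 and morphant 2, and 0 to 77 with a library left out. With a replicate block 0 genes were called by edgeR, with 2517 at an unadjusted p under 0.05 against 3211 without the block. The labels used here link same-numbered libraries by number alone. Their deviations from the group means correlated at 0.03, -0.09 and -0.16, beside -0.04 to 0.15 for the other pairs. With 3 libraries per group such correlations cannot tell whether the libraries were paired. The cause of the differences between settings was not tested. Depth limits gfi1b most, with as few as 18 counts in a library.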
